A study of Mus musculus with 1699 samples.

Results

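Dopamine neurons of the ventral midbrain are divided by position into those of the substantia nigra and those of the ventral tegmental area, and 10 genes that have been used to tell the 2 regions or their subtypes apart were followed here through single neurons: Sox6, Otx2, Calb1, Anxa1, Ndnf, Neurod6, Grp, Lpl, Sncg and Satb1. They make up 10 of 39468 gene entries. They were read in cells with an RPKM over 150 for Th, the gene of tyrosine hydroxylase, which makes the precursor of dopamine. These cells, called Th-high, were 881 of 1468 cells kept and of 1699 deposited. RPKM is the number of reads on a gene, scaled by the length of its transcript and the reads of the cell, so it compares genes of different length.

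The cells were GFP-positive cells sorted by flow cytometry from dissected mouse ventral midbrain and profiled one by one with Smart-seq2, a full-length cDNA method that sequences poly(A) RNA. All mice carried Pitx3tm1Mli, written Pitx3eGFP here, an allele in which the coding sequence of the green fluorescent protein eGFP sits in the locus of the transcription factor gene Pitx3, so there was no wild-type group. Pitx3eGFP/wt heterozygotes keep 1 working Pitx3 copy and gave 719 Th-high cells at 6 ages, from embryonic day (E) 13.5 to postnatal day (P) 90. These were 90 cells from E13.5, 67 and 65 from E18.5 (title series 18_1 and 18_2, the number in the title of a cell), 170 from P1, 48 from P7 and 62, 56, 38 and 21 from P90 (P90_1, P90_2, P90_4 and P90_5), and the remainder was from E15.5. Pitx3eGFP/eGFP homozygotes lack a working Pitx3 copy and gave 77 Th-high cells at E13.5 and 85 (46 in P1H_1 and 39 in P1H_2) at P1. Since the reporter sits in Pitx3, the sort was set to leave out GFP-negative cells, whatever their Th level. The study still excluded some sequenced cells that grouped with cells lacking eGFP expression and high in Olig1.

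The nigra projects mainly to the dorsal striatum and its neurons are those most readily lost in Parkinson's disease, while tegmental neurons project to the nucleus accumbens and cortex and are more often spared. Sox6 and Otx2 are transcription factors that mark nigral and tegmental neurons and their progenitors, respectively, and Calb1 encodes calbindin, a calcium buffer found in tegmental and dorsal-tier nigral neurons. The remaining genes divide these regions further: a peptide (Grp), a basic helix-loop-helix factor (Neurod6) and a lipase (Lpl) of subsets of tegmental or adjoining neurons, and a membrane-binding annexin (Anxa1), a secreted glycoprotein (Ndnf) and a chromatin organiser (Satb1) described in the nigra.

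No animal was named for any cell, although several animals were used per stage, so each of the 8 groups counted as 1 sample and no test was possible. Intervals are given at 95% and cover counting error only. A share is called higher or lower in the text only where the interval of the difference left out 0, and such a difference compares the cells collected, not animals. The study names a single dissociation kit for all embryonic stages, a different one shared by P1 and P7, and papain for the adults. Age therefore cannot be told apart from the kit at the step out of E18.5 or at the step into P90. The kit stayed the same across the embryonic steps and from P1 to P7. At E13.5 no Pitx3eGFP/wt cell and every Pitx3eGFP/eGFP cell held ERCC spike-in RNA, so that spike-in and genotype cannot be told apart there. Among Pitx3eGFP/wt cells, those of E13.5, E15.5 and P7 held none, those of E18.5 and P90 all did, and P1 had both kinds. The steps from E15.5 to E18.5 and from P7 to P90 therefore cannot be told apart from spike-in. The 16 title series are the only subdivision of the groups used below.

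Th-high cells held 100007 to 6017812 reads on genes, with a median of 1665937, and group medians ran from 905341 (E13.5 Pitx3eGFP/eGFP) to 2353453 (E13.5 Pitx3eGFP/wt). The mean RPKM of Pitx3 was 429 in Pitx3eGFP/wt and 18.5 in Pitx3eGFP/eGFP cells at E13.5, and 133.8 and 9.03 at P1, lower in the genotype that lacks the gene. These reads cannot be told apart from those of Elovl3, whose exons overlap. The summed RPKM of 5 dopamine neuron markers (Th, Ddc, Slc18a2, Nr4a2 and En1) had a median between 1850 and 4767 in every group. Since Th is in this list and also selected the cells, a high sum was partly fixed by that choice. The sum is therefore no separate check of cell identity. Cells with at least 3 of 10 oligodendrocyte-lineage markers over RPKM 10 had been left out (35 of them Th-high, 93 of them from P7). Among the Th-high cells kept, 10 at P1 and 6 at P7 in Pitx3eGFP/wt and 3 at P1 in Pitx3eGFP/eGFP still held 2 or more astrocyte, microglia or vascular markers over RPKM 10, and none did elsewhere. In the other 5 groups single markers did pass in some cells (Aldh1l1, Gja1, Gfap, Csf1r, Cldn5 or Pecam1), with summed levels of up to 142.4 for astrocyte, 84.2 for microglia and 136.9 for vascular markers and a median of 0 for each list, and Aqp4 and C1qa had no cell over RPKM 10.

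A gene was counted as expressed over RPKM 10. At the median depth this took 105.4 reads for the long Sox6 transcript, 52.7 for Lpl, 51.8 for Satb1, 38.8 for Calb1, 38.5 for Ndnf, 29.8 for Neurod6, 25.2 for Otx2, 11.7 for Sncg, 11.4 for Grp and 11.2 for Anxa1. The threshold therefore demanded more reads of Sox6 than of any other member. The lowest cell was at 0 for every member in every group.

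Otx2, the homeobox factor, was among the most widespread members before birth. Its gene lies on the minus strand of chromosome 14 (GRCm38, chr14:48657677-48673819), and its exons overlap Gm49154 and Otx2os1, whose reads cannot be told apart in these unstranded libraries. In Pitx3eGFP/wt cells its shares over RPKM 10 were, in order of age from E13.5, E15.5, E18.5 and P1 to P7 and P90, 37.8, 55.9, 37.9, 35.9, 37.5 and 34.5%, with an interval of 27.8 to 48.6% for the first (34 of 90 cells). The values of the other members are given in the same order. E15.5 stood above both neighbours, by 18.1 points over E13.5 (interval 3.96 to 31.2), and E18.5 was 18.0 points below it (difference -18.0, interval -30.1 to -5.12). E13.5 and E15.5 are 1 title series each, so these steps cannot be told apart from a difference between series. The 4 later stages lay between 34.5% and 37.9%. The median cell was at RPKM 0.269 at E13.5, 98.98 at E15.5 and 0 from E18.5 on, and the highest cells were at 472, 1106, 375, 658, 512 and 271.3 in order of age. Outside E15.5 the gene was thus under the threshold in most cells, and where it was over it the level was high, with a median of 217.8 at E15.5 and 68.2 at P90 among the cells that passed the threshold. The 4 title series of P90 spanned a wide range, with 41.9% and 46.4% in P90_1 and P90_2 and 13.2% and 19.05% in P90_4 and P90_5.

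Members of the Otx and Pitx families bind short sites built on TAATCC, and the promoter windows of the members (250 bases before and 50 bases after a transcript start, RefSeq, GRCm38.p6) were searched for these letters because the study removes Pitx3. Of the 10 members, 6 had windows in the set searched, 18 in all, each of a gene on the minus strand. The others, Calb1, Ndnf, Grp and Lpl, lie on the plus strand, had no window there and were not searched. The letters were held on either strand by 2 of the 18, against 7.06% of the 32851 windows of the set. One is a window of Otx2 (minus strand, chr14:48665060-48665359), in which the letters run on the opposite strand, GGATTA, at base -211 from the start, shown in capitals. The other is a window of Sox6 (minus strand, chr7:115801560-115801859), with TAATCC at base -29, in capitals. The window of Sncg (minus strand, chr14:34374620-34374919), a gene that is compared between the genotypes below, had no match. A match describes the letters alone.
Otx2 window: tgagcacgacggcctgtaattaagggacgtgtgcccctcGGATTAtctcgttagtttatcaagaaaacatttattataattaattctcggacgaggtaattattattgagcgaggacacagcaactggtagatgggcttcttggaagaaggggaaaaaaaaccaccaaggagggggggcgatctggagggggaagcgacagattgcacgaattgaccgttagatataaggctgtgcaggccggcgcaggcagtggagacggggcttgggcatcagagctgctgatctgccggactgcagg
Sox6 window: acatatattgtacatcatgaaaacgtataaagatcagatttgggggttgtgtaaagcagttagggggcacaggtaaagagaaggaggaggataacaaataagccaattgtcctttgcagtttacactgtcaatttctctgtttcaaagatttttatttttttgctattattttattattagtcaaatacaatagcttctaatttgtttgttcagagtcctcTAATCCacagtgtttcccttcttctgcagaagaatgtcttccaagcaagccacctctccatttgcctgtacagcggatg
Sncg window: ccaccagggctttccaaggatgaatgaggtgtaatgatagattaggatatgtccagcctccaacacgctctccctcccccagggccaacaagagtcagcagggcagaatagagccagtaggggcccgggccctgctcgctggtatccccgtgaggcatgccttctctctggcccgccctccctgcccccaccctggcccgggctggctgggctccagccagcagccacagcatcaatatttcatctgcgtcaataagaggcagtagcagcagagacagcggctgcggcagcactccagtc

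Sox6, the nigral SRY-box factor (minus strand, chr7:115470872-116038796), was rare in Th-high cells. The study likewise did not find high Sox6 levels in these data, and names the gene as an example of mRNAs that Smart-seq2 libraries might misrepresent. This was not tested here. In Pitx3eGFP/wt cells its shares over RPKM 10 were 5.56, 1.96, 4.55, 2.94, 4.17 and 1.13%, which amounts to 22 of 719 cells, with an interval of 1.83 to 12.5% for E13.5 (5 of 90). Their RPKM reached 70.1 at E13.5, 74.6 at P1 and 10.4 at P90, and the median cell was at 0 in every group. Counting any cell with at least 1 read raised the share to 21.1% at E13.5, 16.5% at P1 and 8.47% at P90, still a minority. No 2 neighbouring stages differed beyond the interval. Of the 22 cells, 1 had Sox10, Pdgfra, Olig1 or Olig2 over RPKM 10, against 27 of the other 697.

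Oligodendrocyte precursors also use Sox6, and the cells left out for oligodendrocyte-lineage markers held it in 31 cells (17.1%, interval 11.9 to 23.4%), 29 of them from P1 and P7 Pitx3eGFP/wt mice (20.3% of the cells left out there). Otx2 passed in 80 of the cells left out (44.2%) and Calb1 in 39 (21.5%).

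Satb1, a chromatin-organising factor (minus strand, chr17:51736187-51833290, with exons that overlap Gm36931 and Gm6934), was present at a low level throughout. Its shares were 14.4, 16.7, 12.1, 15.3, 25 and 31.1% (55 cells and an interval of 24.3 to 38.5% at P90), with no step between neighbouring stages beyond the interval. The interval at P1 was 10.2 to 21.6%, which lay below that of P90. Its level was low where it passed: the median among those cells was 21.5 at P90, and 66.7% of P90 cells had at least 1 read. The highest cell of any group was at 237.3.

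Neurod6, the basic helix-loop-helix factor (minus strand, chr6:55677822-55681263), marked a small set of cells from E15.5 on. Its shares were 1.11 (1 cell), 6.86, 13.6, 12.9, 10.4 and 12.99% (interval 8.42 to 18.9% at P90). No single step left the interval. The 2 title series of E18.5 held 19.4% (18_1) and 7.69% (18_2). Where it was on it was high, with a median of 83.6 at E18.5 and 157.4 at P1 among the cells past the threshold and a highest cell at 1370 at E18.5.

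Calb1 (plus strand, chr4:15881264-15908064) showed the largest step of the 10 genes in its share of cells. It passed RPKM 10 in 7.78% of Pitx3eGFP/wt cells at E13.5 (7 cells) and 17.6% at E15.5 (18 cells), then in 76.5% at E18.5 (interval 68.4 to 83.5%, all but 31 cells) and in 77.1, 79.2 and 83.6% at the 3 later ages. The step from E15.5 to E18.5 was 58.9 points (interval 47.2 to 67.8) and the one before it 9.87 points (interval 0.214 to 19.3). Spike-in was absent at E15.5 and present at E18.5, so the step cannot be told apart from it. At P1, Calb1 passed in 75% of the cells without spike-in (title series P1) and 80.3% of those with it (P1_1). The part of spike-in in the earlier step was not tested. The median cell went from 0 at E13.5 and E15.5 to 88.6, 146.3, 197.8 and 224.3 at the later stages, and the highest cells from 243.5 and 274.2 to 1499, 1438, 1208 and 1532. From E18.5 on calbindin was thus present in most Th-high cells.

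Anxa1, annexin A1 (minus strand, chr19:20373428-20390944), appeared late. No Th-high cell held it at E13.5 (0 of 90, which allows a share of up to 3.33%), 1 cell did at E15.5, at 599.6, and later shares were 2.27, 2.94, 4.17 and 10.7%, the last of these 19 cells (interval 6.59 to 16.3%). No neighbouring stages differed beyond the interval. The P90 cells reached 2119 with a median of 324.4 among those past the threshold, and each of the 4 P90 title series held some, 7.89% to 12.5%.

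The secreted products differed in how common they were. Grp, gastrin-releasing peptide on chromosome 18, was in 0 of 90 cells at E13.5 (up to 3.33%) and then in 9.80, 27.3, 37.6, 29.2 and 27.7%, with both early steps beyond the interval (9.80 points, 3.80 to 17.1, and 17.5 points, 7.44 to 26.7). Its highest cells were at 1.66, 272.1, 489, 1846, 486 and 3618 in order of age. At P1 the 2 title series held 30.8% and 48.5%. Ndnf, the neuron-derived neurotrophic factor (plus strand, chr6:65671590-65712326), stayed in a few cells, with shares of 1.11, 0.980, 8.33 (11 cells), 5.29, 6.25 and 6.21%. The step to E18.5 was 7.35 points (interval 1.68 to 13.4), and the highest Ndnf cell was at 578, at P90.

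Lpl, lipoprotein lipase (plus strand, chr8:68880491-68907448), first became common at E18.5, as Calb1 did. It passed RPKM 10 in 0 of 90 cells at E13.5 (up to 3.33%) and then in 2.94, 27.3 (36 cells), 27.1, 20.8 and 24.9%, with a step of 24.3 points to E18.5 (interval 15.6 to 32.7). Its level was modest, with highest cells at 110, 350, 310 and 280 from E18.5 on.

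Sncg, gamma-synuclein (minus strand, chr14:34370274-34374789), was the member whose share stepped up between neighbouring stages after birth. Stages further apart were not compared. Its shares were 3.33, 1.96, 14.4, 8.24, 33.3 (16 of 48 cells) and 48.02% (85 cells, interval 40.5 to 55.6% at P90). The steps to E18.5 (12.4 points, interval 5.44 to 19.6) and from P1 to P7 (25.1 points, interval 12.4 to 39.6) left out 0. The P7 cells are 1 title series. The highest cell was at 151.6 at E18.5 and at 253.2 in the P1 group, and then at 664 and 4398. The 4 P90 title series held 39.5% to 53.2%.

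**Figure D1:**
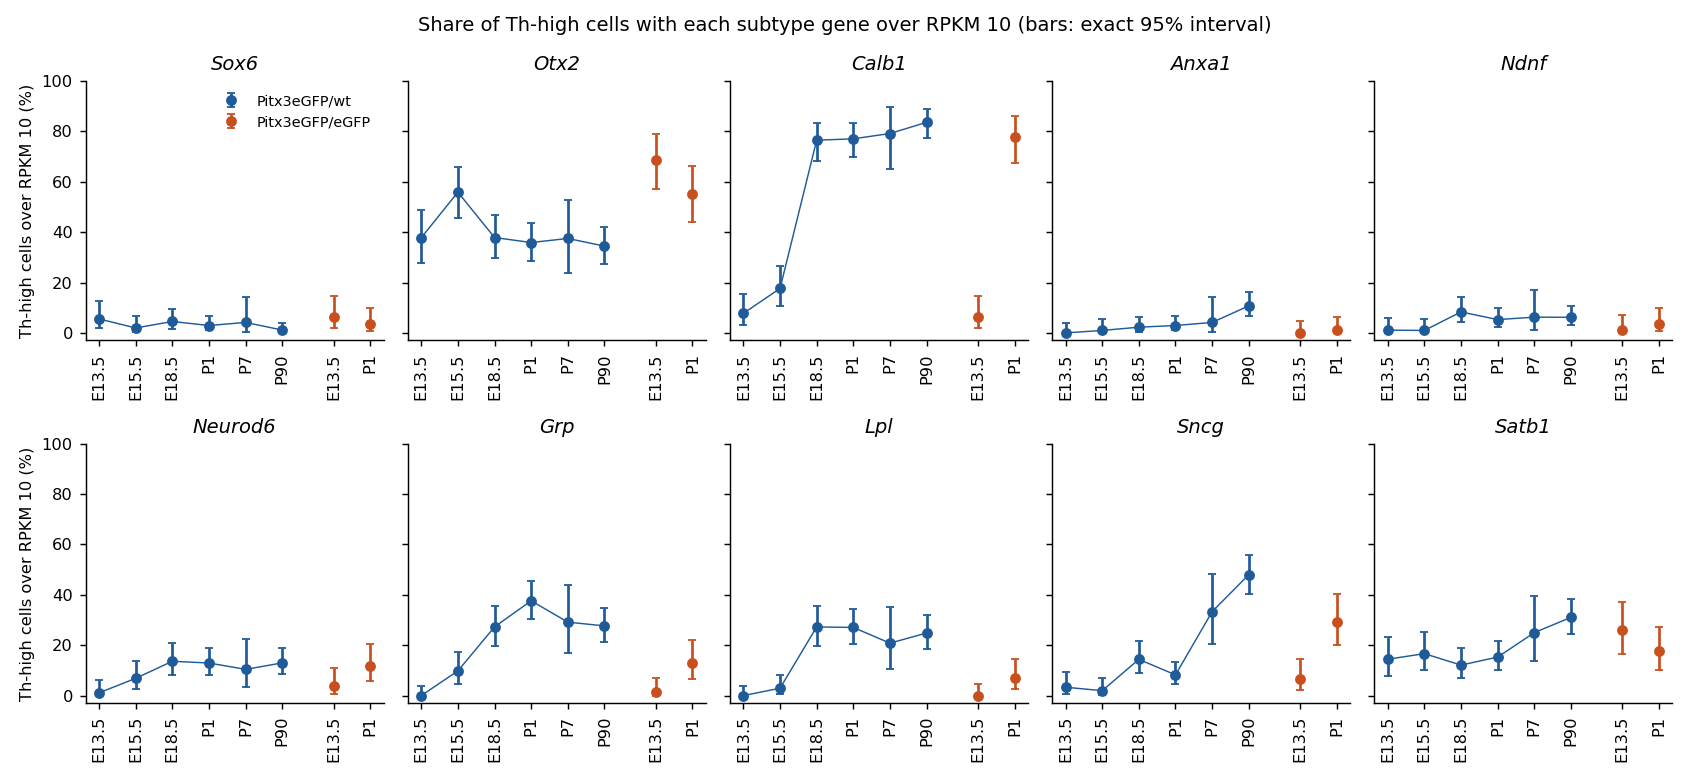
Share of Th-high cells with each member over RPKM 10 (vertical axis, percent, with exact 95% intervals) by stage (horizontal axis), in Pitx3eGFP/wt (blue, joined by lines) and Pitx3eGFP/eGFP (orange). Calb1 stood at 17.6% at E15.5 and 76.5% at E18.5, Sncg reached 48.02% at P90, and Otx2 was higher in orange than in blue at E13.5 and P1.

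Ordered by share at P90, Calb1 (83.6%) stood first, followed by Sncg (48.02%), Otx2 (34.5%), Satb1 (31.1%), Grp (27.7%), Lpl (24.9%), Neurod6 (12.99%), Anxa1 (10.7%), Ndnf (6.21%) and Sox6 (1.13%). Each gene's exact interval overlapped that of the next in this order, except that of Calb1, which lay above that of Sncg. The order differed between title series and thresholds: in P90_4 Otx2 (13.2%) stood below Satb1 (28.9%), Grp (26.3%) and Lpl (15.8%), and with at least 1 read Satb1 (66.7%) stood second and Otx2 (43.5%) sixth. The study reports that neurons high in the dopamine transporter gene were underrepresented among the sequenced cells. It holds that long-projecting nigral and tegmental neurons are most likely hard to sample, so the order describes the cells collected. At E13.5 the order was led by Otx2 (37.8%) and Satb1 (14.4%). A Pitx3eGFP/wt cell held 0.711 members over RPKM 10 on average at E13.5 (SD over cells 0.738), 2.24 at E18.5 and 2.81 at P90 (SD 1.71). Cells with none of the 10 were 43.3% at E13.5 (39 of 90) and 4.52% at P90 (8 cells).

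Taking mean RPKM as the measure, 6 of the 9 members that could be compared were more than 2-fold higher at E15.5 than at E13.5 on the log2(mean + 1) scale and 1 was lower, where 9.11% and 9.17% of 14738 entries were. Those higher were Otx2 (157.2 against 55.1), Calb1 (16.5 against 6.81), Neurod6 (8.58 against 0.474), Grp, Lpl and Anxa1, the last through the single E15.5 cell, and Sncg was the lower one. Neurod6, Grp, Lpl and Anxa1 had a mean under 1 at E13.5 and Sncg had one at E15.5, so these 5 could be compared only through the stage where they were high, and nothing is read from the count beside the share of all entries. From E15.5 to E18.5, 6 of 10 were higher and 2 lower (12.4% and 6.32% of entries). Calb1 (169.3 against 16.5, log2 ratio 3.28), Ndnf, Neurod6 (32.3 against 8.58), Grp (33.5 against 7.39), Lpl (12.3 against 1.33) and Sncg (9.04 against 0.794) were higher, and Otx2 (59.2 against 157.2) and Anxa1 were lower. The mean of Neurod6 at E18.5 was 52.8 in 18_1 and 11.03 in 18_2, and without 18_1 it was not 2-fold higher than at E15.5, which left 5. Ndnf and Sncg could be compared only through E18.5, since their means at E15.5 were under 1 (0.361 and 0.794), so this count too is a description. Without 18_2, Anxa1 was no longer lower and Satb1 was (3.98 against 9.16). The median log2 ratio over the members compared was 1.22 and 1.92 in these 2 comparisons, with the same limit, and -0.03 and 0.00 over all entries.

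After E18.5 fewer members passed 2-fold. From E18.5 to P1, Grp alone was higher (82.1 against 33.5) and none was lower (4.91% and 1.61% of entries). From P1 to P7, Sncg was higher (56.6 against 7.39, log2 ratio 2.78) and Neurod6 lower (5.09 against 20.7), where 4.04% and 5.86% of entries were. From P7 to P90, 4 of 10 were higher, namely Sncg (350.8 against 56.6), Anxa1 (54.9 against 8.61), Grp (141.7 against 52.9) and Neurod6 (13.1 against 5.09), and Otx2 was lower (31.03 against 78.8), against 12.3% and 16.6% of entries. Leaving out 18_1 added Anxa1 to the members higher at P1, which made 2. Leaving out 18_2 removed Grp, and Neurod6 was then lower at P1. Without P1_1, Anxa1 was higher in place of Grp, and without the P1 cells that lack spike-in Grp was also lower at P7. Without P90_1, Grp and Neurod6 were no longer higher at P90 and Sox6 was lower besides Otx2. The P7 group is 48 cells of 1 title series.

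The question the nigral and tegmental factors pose is whether a cell that holds one lacks the other. Pairs were therefore counted in the 719 Pitx3eGFP/wt Th-high cells and set beside the number that the product of the 2 shares within each stage gives, with an exact Poisson interval for the count. Sox6 and Otx2 were both over RPKM 10 in 2 cells where the shares give 8.51, a ratio of 0.235 (interval 0.0285 to 0.849). One of the 2 cells was from E13.5 and the other from E18.5, and the stages E15.5, P1, P7 and P90 had none. Without title series 18_1 the ratio was 0.137 (0.00347 to 0.763).

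The low overlap of Sox6 and Otx2 held with a weaker criterion, and at equal depth it depended on the threshold. With at least 1 read of each gene, 30 cells held both where the shares give 51.8 (ratio 0.579, 0.391 to 0.827). Otx2 reads were found in 31.6% of E13.5 cells with a Sox6 read and in 60.6% of the others (difference -29.0 points, -48.3 to -3.74). They were found in 20% of E18.5 cells with a Sox6 read (4 of 20) and in 50% of the others (difference -30.0 points, -45.0 to -6.56), and in 28.6% against 49.3% at P1 (difference -20.7 points, -36.3 to -0.542). The difference was -30.7 points at E15.5 (-54.9 to -5.63), and at P7 (-28.8, -50.7 to 15.9) and P90 (-18.4, -35.9 to 7.97) the interval held 0. When each cell was thinned to 100000 reads, the ratio over RPKM 10 was 0.546 with an interval that held 1 (0.177 to 1.27), while with at least 1 of those reads 8 cells held both where the shares give 27.2 (ratio 0.294, 0.127 to 0.579). In the thinned E15.5 cells Otx2 reads were found in 1 of 10 cells with a Sox6 read and in 61.96% of the others (difference -52.0 points, -64.3 to -19.9). The interval also left out 0 in the thinned E13.5 and E18.5 cells, and it held 0 at P1 (-22.2 points, -36.1 to 2.31), P7 and P90 (-17.7 points, -33.9 to 14.04). With the P1 cells restricted to those with spike-in the ratio over RPKM 10 was 0.282 (0.0342 to 1.02). The 22 Sox6 cells had a median of 1747364 reads and the others one of 1785387. Whether the overlap with Sox6 differed between Otx2 and Calb1 was not tested.

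For Sox6 and Calb1 the overlap over all stages left the product of the shares at some thresholds and not at others. Both passed RPKM 10 in 7 cells where the shares give 12.4 (ratio 0.563, 0.226 to 1.16), so the interval held 1, as it did with at least 1 read (0.831, 0.639 to 1.06). For a gene as common as Calb1 this decides little. Over RPKM 10 such an interval left out 1 for Calb1 with only 2 genes above and 4 below, of 12540. Over RPKM 1 the ratio was 0.684 (0.465 to 0.971), and with at least 1 read in thinned cells it was 0.667 (0.440 to 0.970). At E18.5, P1 and P7 the Calb1 share was lower in Sox6 cells: 2 of 6 (33.3%) against 78.6% of the others at E18.5 (difference -45.2 points, -69.7 to -7.72), 2 of 5 (40%) against 78.2% at P1 (difference -38.2, -67.0 to -0.614) and 0 of 2 against 82.6% at P7. Counting any read, Calb1 was in 50% of the 20 E18.5 cells with Sox6 and in 94.6% of the others (difference -44.6 points, -64.9 to -23.7). At P1 it was in 75% and 95.1% (difference -20.1 points, -38.6 to -6.81), and at P7 in 40% and 97.7% (difference -57.7 points, -86.0 to -19.5). The E13.5 and E15.5 differences were 7.93 and 12.5 points, with intervals that held 0. With at least 1 read, E18.5, P1 and P7 together gave 33 cells with both where the shares give 47.9 (ratio 0.690, 0.475 to 0.968), and with P90 added there were 47 where they give 62.5 (ratio 0.752), with an interval that ended just under 1 (0.552 to 0.9998). At P90 both Sox6 cells, themselves just over the threshold at 10.4, held Calb1 over RPKM 10, as did 83.4% of the other cells. Over RPKM 1, where Sox6 passed in more P90 cells, Calb1 was in 8 of 12 of them and in 89.1% of the others (difference -22.4 points, -50.3 to -2.09), and with at least 1 read the difference was -4.81 points (-28.0 to 1.66).

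Otx2 and Calb1, both used as tegmental markers, were close to the product of their shares over all stages (ratio 1.02, 0.874 to 1.19), although this interval seldom leaves out 1 for Calb1. At P90 Calb1 was in 59 of the 61 Otx2 cells (96.7%) and in 76.7% of the others (difference 19.99 points, 9.59 to 28.8). Counting any read, it was in 98.7% and 97% (difference 1.70 points, -4.33 to 7.26). Both genes were more common in P90_1 and P90_2 (Calb1 in 88.7% and 87.5%) than in P90_4 and P90_5 (Calb1 in 73.7% and 76.2%). Within the title series the difference over RPKM 10 was 19.4 points in P90_1 (3.33 to 35.03), and its interval held 0 in P90_2 (16.2 points, -2.19 to 33.7), in P90_4 (30.3 points, -15.03 to 47.3) and in P90_5 (-1.47 points, -48.5 to 29.9), the last 2 with 5 and 4 Otx2 cells. At E18.5, P1 and P7 the difference was -7.27, -10.2 and -11.1 points, each with an interval that held 0.

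**Figure D2:**
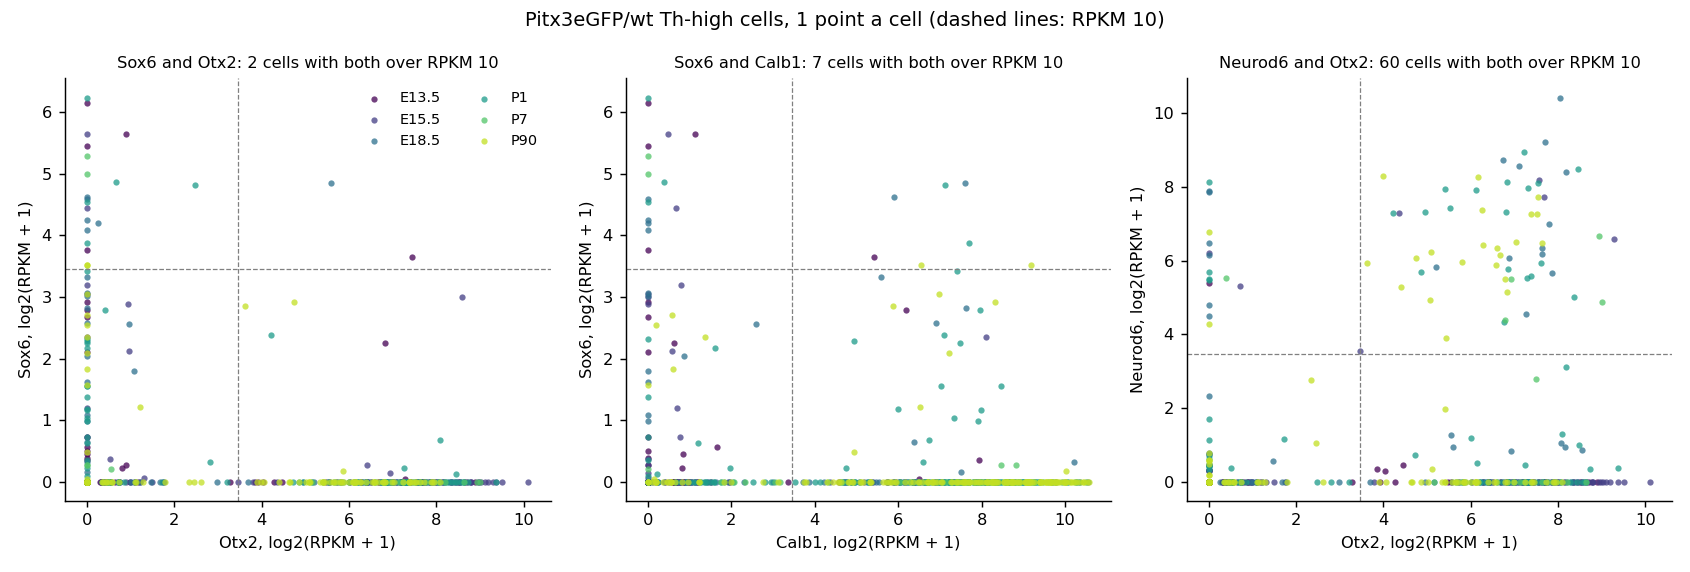
Each point is 1 Pitx3eGFP/wt Th-high cell, coloured by stage, with log2(RPKM + 1) of 2 genes on the axes and dashed lines at RPKM 10. The upper right field holds 2 cells for Sox6 (vertical) and Otx2 (horizontal), 7 for Sox6 and Calb1 and 60 for Neurod6 and Otx2.

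Of the 45 pairs of members, 10 stood above and 8 below the product of the shares, meaning that the interval of the count left it out. The same rule was applied to each member with every other gene over RPKM 10 in at least 5% of the Pitx3eGFP/wt Th-high cells. It called 0.963% above and 0.924% below, of 125402 pairs. Sox6 and Anxa1 fell below that 5% themselves, so their pairs are set beside those of commoner genes. By member the calls ran from 0.0159% above and 0.0319% below for Calb1 to 1.99% above for Neurod6 and 2.11% below for Ndnf. The pairs above formed a block of Otx2, Neurod6, Grp, Lpl and Anxa1. Otx2 and Neurod6 were together in 60 cells (28.8 given by the shares, ratio 2.08, 1.59 to 2.68), so that 60 of the 76 Neurod6 cells held Otx2. Neurod6 and Grp were together in 51 cells (21.7 given), Neurod6 and Lpl in 40 (17.8), Grp and Lpl in 76 (42.5), Otx2 and Lpl in 82 (50.7), and Otx2 and Grp in 84 (64.3).

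Anxa1, described in the nigra, was found with members of this block and not with Otx2 beyond its shares. It was together with Neurod6 in 14 of its 30 cells (3.80 given, ratio 3.68, 2.01 to 6.18), with Grp in 20 (8.64 given) and with Lpl in 19 (7.34 given), and with Otx2 in 14 (10.8 given, ratio 1.30, 0.710 to 2.18). The remaining pair above was Sox6 and Ndnf, in 4 cells (1.09 given, ratio 3.67, 1.00 to 9.40). With at least 1 read Sox6 and Ndnf were together in 26 cells (6.34 given, ratio 4.10, 2.68 to 6.01).

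The pairs below involved Ndnf and Sncg besides Sox6 and Otx2. Ndnf was never found over RPKM 10 together with Otx2 (0 cells, 13.2 given, ratio at most 0.278) or Neurod6 (0 cells, 4.49 given), and was with Lpl in 2 cells (8.82 given) and with Calb1 in 12 of its 36 (27.2 given, ratio 0.442, 0.228 to 0.771). With at least 1 read, Otx2 and Ndnf shared 12 cells where 22.4 were given, so the 2 genes did occur together at a low level. Sncg was with Otx2 in 31 cells (49.8 given), with Neurod6 in 7 (17.3 given) and with Lpl in 22 (33.5 given, ratio 0.657, 0.412 to 0.995). No pair of Satb1 left the product of the shares out of its interval, that with Ndnf included (13 cells, 7.19 given).

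**Figure D3:**
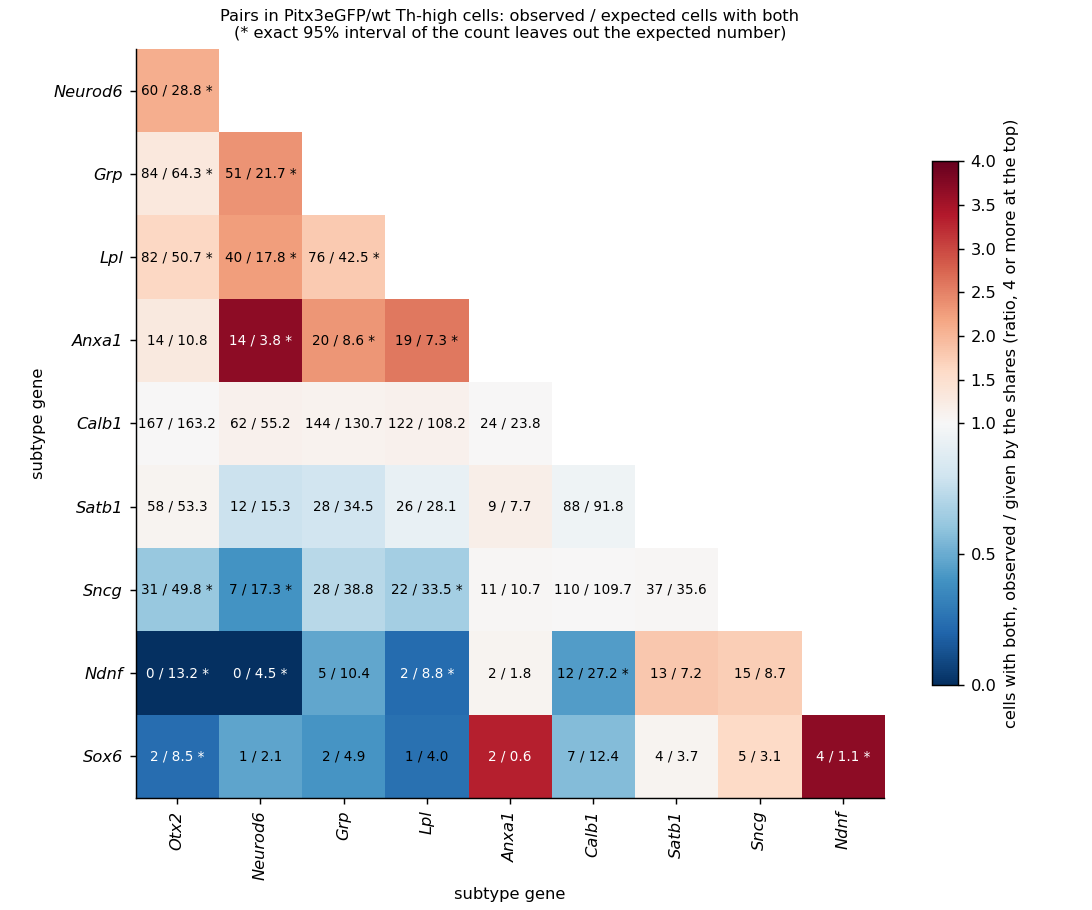
Cells with both genes over RPKM 10, observed and given by the shares within stages, for the 45 pairs in 719 Pitx3eGFP/wt Th-high cells; the colour is their ratio, and a star marks an interval that leaves out the number given. Red fields join Otx2, Neurod6, Grp, Lpl and Anxa1, and blue fields join Ndnf or Sox6 to Otx2.

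The study names subgroups after Aldh1a1, a retinaldehyde dehydrogenase that marks ventral-tier nigral and some tegmental neurons, and after Vip, a neuropeptide, so Th-high cells were divided at RPKM 150 for each. Aldh1a1-high cells were 160 of 350 at E18.5, P1 and P7 combined (perinatal) and 62 of the P90 cells. In the perinatal cells 4 of 10 members were higher in Aldh1a1-high cells and 1 was lower, where 3.77% of entries were higher and 24.4% lower. Grp passed in 53.8% of Aldh1a1-high and 14.7% of the other cells (difference 39.01 points, 29.4 to 47.7), Otx2 in 55% and 21.6% (33.4 points, 23.4 to 42.6), Lpl in 42.5% and 12.6%, and Neurod6 in 22.5% and 4.74%. Sncg was the lower one, in 2.50% and 23.7% (difference -21.2 points, -27.9 to -14.5). Median reads in Aldh1a1-high and other cells were 906047 and 1266036 at E18.5, 1580490 and 1603456 at P1, and 1848162 and 2469762 at P7. The part of depth in these differences was not tested. Sox6 passed in 2.50% and 4.74% and Calb1 in 74.4% and 79.5%, with intervals that held 0.

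At P90, 5 members were higher in Aldh1a1-high cells and none was lower (3.79% and 6.67% of entries). All 19 Anxa1 cells of that age were Aldh1a1-high, 30.6% of the 62, against none of the others (up to 2.61%). Lpl passed in 58.1% and 6.96% (difference 51.1 points, 37.3 to 63.1), Grp in 51.6% and 14.8%, Neurod6 in 33.9% and 1.74%, and Otx2 in 54.8% and 23.5%. Sncg, lower in Aldh1a1-high cells before, was now in 48.4% and 47.8% (difference 0.561 points, -14.5 to 15.6), and the change between the ages was not tested. Median reads were 1659339 in Aldh1a1-high and 1894398 in other P90 cells. Within the Aldh1a1-high cells from E15.5 on, 4 of the 45 pairs were above and 3 below the product of the shares. The same held for 0.351% and 0.281% of the pairs of a member with any gene over RPKM 10 in at least 5% of these cells. Otx2 and Neurod6 (53 cells, 33.3 given), Neurod6 and Grp (50, 31.8 given) and Grp and Lpl (71, 55.4 given) were still among those above, and Otx2 and Ndnf (0, 9.39 given) among those below.

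Other region genes were read by lists. Of 6 other nigral genes besides Aldh1a1, the dopamine transporter gene Slc6a3 was higher (83.1% and 70.5%) and Igf1 lower (1.88% and 13.7%) in perinatal Aldh1a1-high cells. Of 8 other tegmental genes, Cck and Adcyap1 were higher and Calb2, Slc17a6, Vip, Tacr3 and Lmx1a were lower. Of all entries, 3.77% were higher and 24.4% lower in the same cells. At P90 the counts were 2 higher of 6 and 3 higher and 3 lower of 8, where 3.79% of entries were higher and 6.67% lower.

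Vip-high cells were looked at after the values of the first division had been seen. They were 53 of the 350 perinatal cells, and 2 members were higher and 5 lower in them (21.1% and 4.34% of entries). Otx2 passed in 0 of 53 (up to 5.66%) and in 43.4% of the other perinatal cells, Lpl in 0 and 30.98%, Neurod6 in 0 and 15.2%, Ndnf in 0 and 7.74%, and Grp in 13.2% and 36.03%. Calb1 was the reverse, in 51 of 53 (96.2%) and 73.7% (difference 22.5 points, 12.4 to 28.4) and at a mean RPKM of 531 against 152.8, and Sncg passed in 30.2% and 11.1%.

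**Figure D4:**
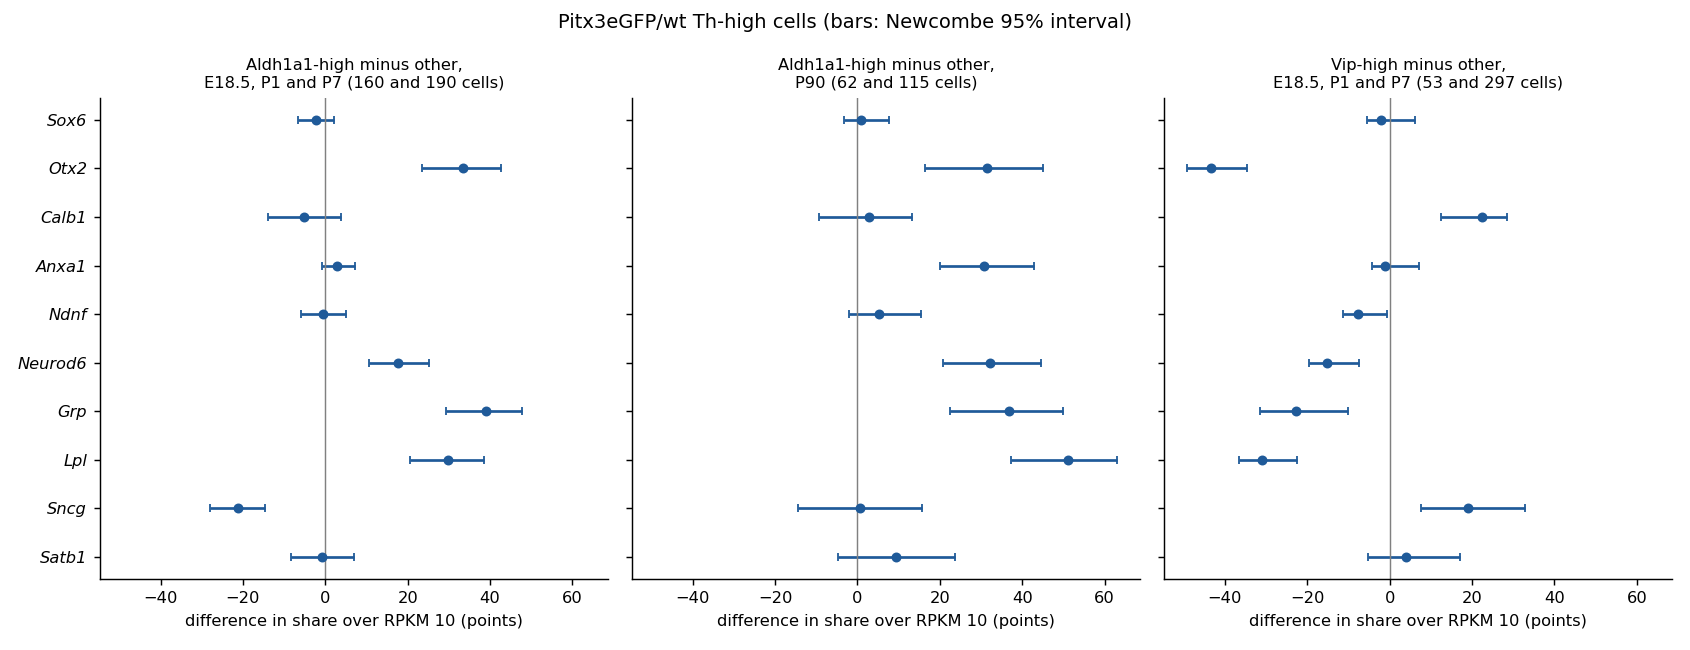
Difference in the share of cells over RPKM 10 (horizontal axis, percentage points, with Newcombe 95% intervals) for each member between Aldh1a1-high and other Pitx3eGFP/wt Th-high cells, perinatal and at P90, and between Vip-high and other perinatal cells. Otx2 lies at 33.4 and 31.4 in the Aldh1a1 panels and at -43.4 in the Vip panel.

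To see whether the members follow the dopamine phenotype, Th-high cells were compared with sorted cells that did not pass the Th threshold (Th-low). At P90 7 of 10 members were higher in Th-high cells and none was lower (7.06% and 8.09% of entries). Calb1 passed in 83.6% and 46.2%, Sncg in 48.02% and 11.7%, Otx2 in 34.5% and 7.59%, Grp in 27.7% and 6.21%, Neurod6 in 12.99% and 0.690%, Anxa1 in 10.7% and 0, and Ndnf in 6.21% and 0.690%. Lpl and Satb1 did not separate the cells, with differences whose intervals held 0 although Lpl over RPKM 50 was 12.3 points higher in Th-high cells (4.92 to 19.5). At P1, 3 were higher and 0 lower in Pitx3eGFP/wt (10.8% and 4.23%), namely Calb1 (77.1% and 53.7%), Grp (37.6% and 15.8%) and Neurod6 (12.9% and 3.16%). Without the P1 cells that lack spike-in the Calb1 difference had an interval that held 0 (17.3 points, -1.75 to 37.6). In P1 Pitx3eGFP/eGFP cells Calb1 and Sncg were higher in Th-high cells, and Grp, higher in Pitx3eGFP/wt, was lower (12.9% and 31.5%, difference -18.6 points, -31.2 to -5.64). At E13.5, 1 was higher and 2 lower in Pitx3eGFP/wt (3.57% and 3.89%). Otx2 was higher in Th-high cells (37.8% and 20%, difference 17.8 points, 1.75 to 31.3), while Neurod6 and Grp were lower (1.11% and 10%, and 0 and 6%). The intervals there held 0 under 6, 2 and 5 alternatives for Otx2, Neurod6 and Grp, thinning included for Otx2.

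For Sox6 the comparison with Th-low cells turned on the oligodendrocyte-marked cells. With them left out, its share at P1 was 0.836 points higher in Th-high cells (-4.67 to 4.89), and with them kept it was lower by 10.2 points (difference -10.2, -17.3 to -4.17).

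The 2 genotypes were compared at E13.5 and P1 to see how the members stand in cells without Pitx3. The Th threshold itself took different parts of the 2 genotypes: Th-high cells were 43.3% of the Pitx3eGFP/eGFP (35.9 to 50.9) and 64.3% of the Pitx3eGFP/wt cells kept at E13.5 (55.8 to 72.2), and 53.8% (45.7 to 61.8) and 64.2% (58.1 to 69.9) at P1. Within them the mean RPKM of Th was 1290 against 2058 at E13.5 and 1308 against 2095 at P1. The part of this selection in the differences of the members was not tested. At E13.5, 1 of 10 members was higher in Pitx3eGFP/eGFP and 0 lower, a count near the share of all entries (11% and 2.74%). The higher member was Otx2, with 53 of 77 cells (68.8%, interval 57.3 to 78.9%) against 34 of 90 (37.8%), a difference of 31.1 points (15.9 to 44.2), and a mean RPKM of 193.8 against 55.1. Its median cell was at 131.6 against 0.269. The 3 Pitx3eGFP/eGFP title series held 68.3% (13H_4, 41 cells), 83.3% (13H_5, 5 of 6 cells) and 66.7% (13H_6, 30 cells). The Pitx3eGFP/wt cells were 1 title series without spike-in, so genotype cannot be told apart from title series or spike-in here. Thinning every cell to 100000 reads left the share at 68.8% against 36.7%. Satb1 passed in 25.97% and 14.4% (difference 11.5 points, -0.634 to 23.8). By mean RPKM, 2 of the 6 members that could be compared, Otx2 and Neurod6 (3.13 against 0.474), were more than 2-fold higher and 0 lower (7.32% and 8.03% of entries). The 3 Pitx3eGFP/eGFP cells with Neurod6 were all from 13H_4 (mean 5.88), and it was at a mean of 0 in 13H_5 and 13H_6. Neurod6 could be compared only through Pitx3eGFP/eGFP, and without 13H_4 it was not higher, so nothing is read from this count beside the share of all entries.

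At P1, 2 members were higher and 2 lower in Pitx3eGFP/eGFP (12.2% and 1.94% of entries). Otx2 passed in 55.3% against 35.9% (difference 19.4 points, 6.48 to 31.6), and Sncg in 29.4% against 8.24% (difference 21.2 points, 11.1 to 32.1). Grp passed in 12.9% against 37.6% (difference -24.7 points, -34.0 to -13.5), while in the Th-low cells of the same age it passed in 31.5% (23 of 73) against 15.8% (15 of 95), a difference that was not tested. Lpl passed in 7.06% against 27.1% (difference -20.0 points, -28.1 to -10.3). With the cells that hold spike-in alone, the same 4 genes differed in the same directions, with 4.28% of entries higher and 3.71% lower: Otx2 by 18.9 points, Sncg by 18.8, Grp by -35.5 and Lpl by -18.7.

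Both of the genes that were higher at P1 rested on 1 of the 2 Pitx3eGFP/eGFP title series. Otx2 passed in 67.4% of P1H_1 and 41.03% of P1H_2 cells, and without P1H_1 the difference from Pitx3eGFP/wt was 5.14 points (-10.7 to 22.1). Sncg passed in 15.2% of P1H_1 and 46.2% of P1H_2 cells, and without P1H_2 the difference was 6.98 points (-2.21 to 20.4). Grp (17.4% and 7.69%) and Lpl (10.9% and 2.56%) were below both Pitx3eGFP/wt title series in each of the 2, which held 30.8% and 48.5% for Grp and 27.9% and 25.8% for Lpl. Both GABA neuron markers, Gad2 (27.1% against 12.9%) and Slc32a1 (14.1% against 3.53%), and 1 of 10 oligodendrocyte-lineage markers, Mbp (43.5% against 27.6%), were also higher in P1 Pitx3eGFP/eGFP cells, where 12.2% of entries were higher. Gad2 was higher beside the Pitx3eGFP/wt cells with and those without spike-in, while the interval held 0 for Mbp beside those with it (8.68 points, -6.99 to 23.5) and for Slc32a1 beside those without it (8.35 points, -0.214 to 17.8). The summed list had a median RPKM of 25.8 (0.849 to 191.1) against 21.7 (0 to 265.5) for oligodendrocytes and 0.299 (0 to 1170) against 0 (0 to 1095) for GABA neurons. No Pitx3eGFP/eGFP cell was over RPKM 10 for Olig2, Sox10 or Pdgfra, while Olig1 passed in 6 of 85 (7.06% against 7.65%). The part of these in the differences of the members was not tested.

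Calb1 differed in level, and its shares over RPKM 10 lay close to each other. It passed RPKM 10 in 77.6% and 77.1% (difference 0.588 points, -10.9 to 10.8), its mean RPKM was 99.7 in Pitx3eGFP/eGFP and 230 in Pitx3eGFP/wt at P1, with medians of 60.1 and 146.3, and it passed RPKM 50 in 51.8% and 68.8% (difference -17.1 points, -29.4 to -4.41), a lower share. By mean RPKM Sncg alone was more than 2-fold higher (41.8 against 7.39) and 5 members were lower, namely Grp (15.8 against 82.1), Lpl (6.34 against 20.2), Anxa1 (1.18 against 4.82), Calb1 and Ndnf (1.94 against 5.46), where 4.61% and 5.21% of entries were higher and lower. Without P1H_1, Ndnf was no longer lower and Neurod6 was. Without the P1 Pitx3eGFP/wt cells that lack spike-in, or without P1H_2, Otx2 was also higher, and without P1H_2 Calb1, Anxa1 and Lpl were no longer lower. The median log2 ratio was -0.95 over the members and 0.01 over all entries.

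**Figure D5:**
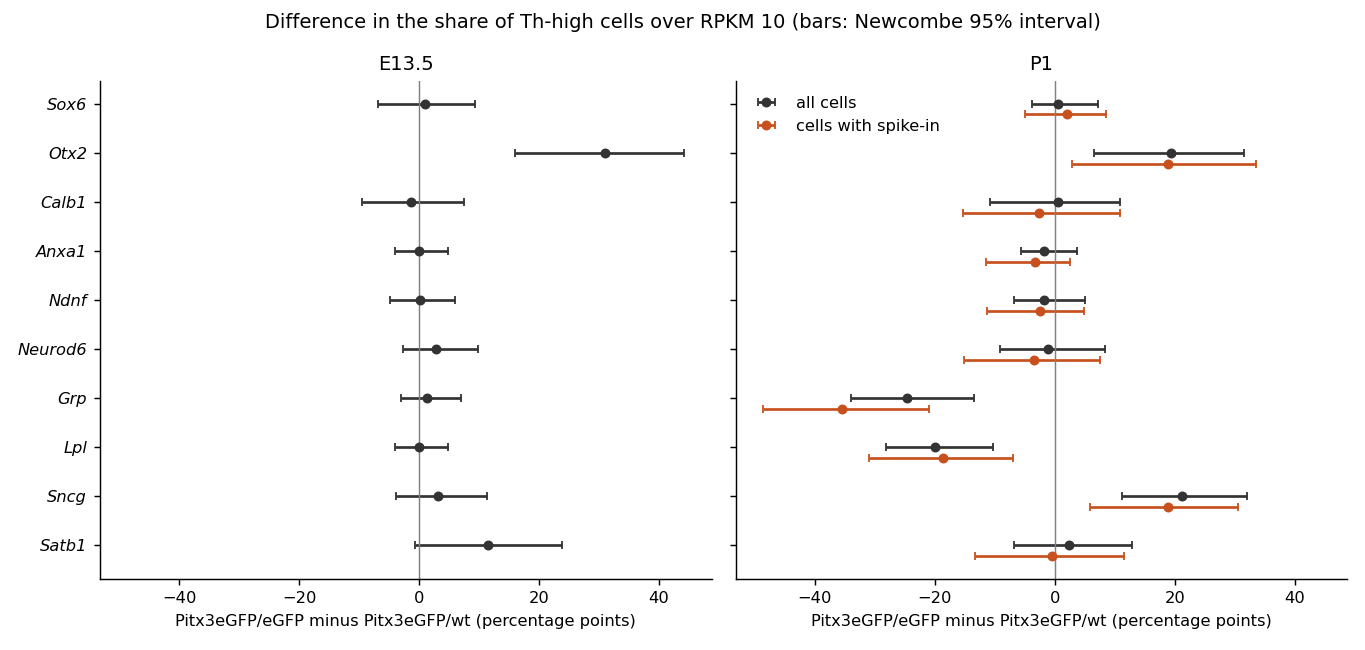
Difference in the share of Th-high cells over RPKM 10 between Pitx3eGFP/eGFP and Pitx3eGFP/wt (horizontal axis, percentage points, with Newcombe 95% intervals) at E13.5 and at P1, at P1 for all cells (black) and for cells with spike-in (orange). Otx2 lies to the right at both stages, and Grp and Lpl lie to the left at P1.

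Aldh1a1 itself was less common in P1 Pitx3eGFP/eGFP cells (36.5% against 58.2% over RPKM 10, difference -21.8 points, -33.6 to -8.76), as was Slc6a3 at both stages (6.49% against 36.7% at E13.5, and 40% against 75.3% at P1). Of 7 other nigral genes these were the 1 lower at E13.5 and the 2 lower at P1, with 0 higher. Of 8 other tegmental genes, Slc17a6 and Adcyap1 were higher at E13.5, and at P1 Lmx1a was higher and Tacr3 lower. Of all entries, 11% were higher and 2.74% lower at E13.5, and 12.2% and 1.94% at P1. Beside the Pitx3eGFP/wt cells without spike-in Tacr3 was not shown to be lower (8.24% against 11.5%, difference -3.30 points, -11.9 to 5.86), and beside those with spike-in Cck was also higher and Calb2 also lower. Within the 25 Aldh1a1-high cells of P1 Pitx3eGFP/eGFP, Otx2 passed in 84% (43.3% of the other 60), Neurod6 in 32% (3.33%), Lpl in 12% (5%) and Grp in 8% (15%). In the 85 Aldh1a1-high P1 Pitx3eGFP/wt cells the same shares were 51.8%, 23.5%, 45.9% and 58.8%. The difference between the genotypes within Aldh1a1-high cells was not tested.

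Pairs were also counted in the Pitx3eGFP/eGFP Th-high cells of both stages, of which 8 held Sox6 and 100 held Otx2. Sox6 and Otx2 were together in 2 cells where the shares give 5.10 (ratio 0.392, 0.0475 to 1.42), and Sox6 and Calb1 in 3 where they give 2.65 (ratio 1.13, 0.233 to 3.30), so both intervals held 1 over the 2 stages. Within P1, none of the 3 Sox6 cells held Otx2 and 57.3% of the others did (difference -57.3 points, -67.5 to -0.139), while at E13.5 the interval held 0 (-30.8 points, -60.5 to 7.80). With at least 1 read the P1 difference was -15.8 points (-48.5 to 17.3), and with at least 1 read in thinned cells it was -60.0 points (0 of 5 Sox6 cells, -70.04 to -15.2). Of the 45 pairs, 1 was below and 0 above. The same held for 0.072% and 0.176% of the pairs of a member with any gene over RPKM 10 in at least 5% of these cells. The 1 pair was Otx2 and Sncg, in 7 cells (17.3 given, ratio 0.405, 0.163 to 0.835). With at least 1 read, Sox6 was found in 7.06% of Pitx3eGFP/eGFP and 16.5% of Pitx3eGFP/wt cells at P1 (difference -9.41 points, -16.8 to -0.498), although over RPKM 10 it was in 3.53% and 2.94%. Beside the Pitx3eGFP/wt cells without spike-in the interval of the first difference held 0 (-6.40 points, -15.1 to 2.76), and beside those with it the difference was -14.2 points (-26.1 to -3.09).

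The genes whose level followed a member most closely were taken as those with the largest value of the smaller of 2 Pearson correlations of log2(RPKM + 1), over the E18.5 (n = 67 and 65 in the 2 title series) and the 170 P1 Pitx3eGFP/wt Th-high cells, among 10200 genes. The points are cells that share title series and differ in depth, so the values describe these cells only. Neurod6 was followed by Gpr83 (0.483), Adra1b (0.410) and Cbln4 (0.358), and Otx2 by Mc3r (0.445), Gpr83 (0.438) and Adcyap1 (0.416). Grp was followed by Aldh1a1 (0.465), Lpl by Cbln4 (0.366), and Calb1 by Unc5d (0.324) and Vip (0.314). For Satb1 no gene exceeded 0.26. Ndnf, Sox6, Anxa1 and Sncg were over RPKM 10 in under 10% of the cells at E18.5, at P1 or at both, so that their values rest on few cells: Ndnf was followed by Nwd2 (0.382), and for the other 3 no gene exceeded 0.26.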

How the data were processed

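For each cell the deposited file gives RPKM values and read counts per gene, which the authors made with STAR on mm10 with eGFP and ERCC sequences added and with rpkmforgenes on Ensembl annotation. Read counts are raw. Cells were kept with over 100000 reads on genes and, after the study's limits, 15% of 31526 entries detected (3.4% at P90). Other alignment limits of the study were not used here. Shares have Clopper-Pearson intervals, differences Newcombe intervals and pair counts Poisson intervals, at 95%. A share of 0 is given with the limit that 3 counts allow. Fold counts used log2(mean RPKM + 1) over entries with a mean RPKM of at least 1 in either group. For differences in share and for pairs, the percentages of all entries cover only entries over RPKM 10 in at least 5% of cells. Scripts used Python 3.11.15, numpy 2.4.6, pandas 2.3.3 and scipy 1.17.1 and were tested on simulated data. The named genes were the 10 members, Th, Pitx3, eGFP, Aldh1a1, Slc6a3, Vip, the listed region genes and the 3 genes most like each member. Members and lists were chosen with earlier results of these data known. Coordinates come from GENCODE vM21. Doublets were not called, since cells were sorted singly.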

Additional observations from a re-analysis of the deposited data

Results flagged for a closer look

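Among the P90 shares of the 10 members, each compared over 4 title series, 1 was marked for the gap between its highest series and the others. Sox6 passed RPKM 10 in 3.23% of the Th-high cells of title series P90_1 (2 of 62 cells, both just over the threshold at 10.4) and in 0 cells of the other 3 P90 series (56, 38 and 21 cells). Since the other 3 were all at 0, any share above 0 would have been marked, so the usual rate of about 1 in 20 groups by chance does not apply. The intervals overlapped, at 0.393 to 11.2% in P90_1 and up to 6.38, 9.25 and 16.1% in the others.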

How the results depend on the processing

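The alternatives changed the threshold of Th (RPKM 50 or 500) or of the genes (RPKM 1 or 50, or any read), the limits on cells, the depth (thinning to 100000 reads), the P1 cells (with or without spike-in), the measure of mean expression and the title series, each left out in turn. No difference between groups whose interval left out 0 turned to the other sign. Of those whose interval held 0, 4 took the other sign and left out 0, all given above: Sox6 at P1 against Th-low cells with oligodendrocyte-marked cells kept and between the genotypes with any read, and, over RPKM 50, Calb1 between the P1 genotypes and Lpl against P90 Th-low cells. Of the counts of members and the pairs of Sox6 with Otx2 or Calb1, 30 values moved under an alternative. Both pairs had 0 cells at RPKM over 50, a ratio of 0 with intervals up to 5.97 and 4.96, so nothing can be read at that threshold. From E13.5 to E15.5 the members 2-fold lower were 0 with Th over 500 or summed reads scaled to the cells' depth and 2 with a pseudocount of 0.1. From E18.5 to P1, 2 were higher with that pseudocount or summed reads. From P1 to P7, 2 were higher with no limit on genes detected, 2 were lower with P1 spike-in cells only or with genes detected counted over all entries, and 2 were higher and 2 lower without the cells that held 2 astrocyte, microglia or vascular genes, an alternative chosen after seeing the data. From P7 to P90, 2 were lower with oligodendrocyte-marked cells kept, the pseudocount or summed reads. In P1 Pitx3eGFP/eGFP over Pitx3eGFP/wt, 2 were higher with spike-in cells only and 3 lower in summed reads. At E13.5 the members with a higher share in Pitx3eGFP/eGFP were 2 with Th over 50 or 500, with genes detected over all entries and after thinning, Satb1 being added. Leaving out 1 title series gave 0 to 2 higher and 0 to 1 lower at P1 against E18.5, 2 to 4 higher and 1 to 2 lower at P90 against P7, 1 to 2 higher and 2 to 5 lower by mean between the P1 genotypes, and 1 higher share there. The cause was not tested. Among differences of single genes, 6 between the genotypes came to leave out 0 and 2 no longer did, 14 and 19 did so between Th-high and Th-low cells, and 4 and none between Aldh1a1-high and other cells. No paired analysis was possible because the labels tie no cell to an animal and the replicate numbers, which restart in each group, link no cells between groups. Among the shares themselves, 37 moved with any read, 33 over RPKM 50, 17 over RPKM 1, 13 without 1 title series, 2 with Th over 500 and 1 with P1 spike-in cells only. Thinning together with any read was also chosen after seeing the data.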
